A study of Mus musculus with 43 samples.

Results

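Epididymal white adipose tissue, a visceral fat depot, was compared between male mice on a high-fat diet that received SZ-A at 600 mg/kg/day and male mice on a standard diet. SZ-A is the alkaloid fraction of Ramulus Mori (Sangzhi), the mulberry twig of Chinese medicine, which is known as an inhibitor of intestinal alpha-glucosidases. The high-fat diet held 60% fat and the standard diet 10% fat. The comparison used 8 SZ-A 600 libraries and 6 standard-diet (SD) libraries, 14 of the 43 RNA-seq libraries of the series. A further 10 libraries from mice on the high-fat diet without SZ-A (HFD) served as the reference for the diet change. The question was which diet changes were still present at the highest dose, and which genes passed beyond their SD level.

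SZ-A 600 library 6 and SD library 4 were left out of the comparison. Genes of ciliated epithelium, a cell type that fat does not hold, summed to 2670 and 1550 CPM (counts per 1e6 of the library total) in these libraries, against at most 63.1 CPM in any library used. Strain, age, genotype, route and length of treatment and the hour of tissue collection are not given in the sources read here. Since the labels speak of replicate biosamples and not of separate animals, the p-values measure how much these libraries vary, which may be technical.

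Total counts, in units of 1e6, were 34.7 to 38.2 per SD library, 36.6 to 44.3 per HFD library and 33.4 to 40.8 per SZ-A 600 library. The mature adipocyte markers summed to 70680 to 80200 CPM in SD and 55020 to 78600 CPM in SZ-A 600. The libraries fell into 2 sets by how much of their counts lay on small noncoding RNA genes, a split that the labels do not explain. Set 1 held 2 SD, 5 HFD and 5 SZ-A 600 libraries, set 2 held 4, 5 and 3, and the set was a term of the fit behind the values given here unless stated. A test of whether the SZ-A 600 effect against SD differed between the sets called 0 of 20054 genes in edgeR (659 at an unadjusted p under 0.05), which does not show that the effects were equal. The summed level of 20 macrophage markers was 1142 and 1634 CPM in HFD libraries 8 and 10, against 4336 to 15610 CPM in the other HFD libraries.

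White fat stores triglyceride in adipocytes, secretes hormones such as leptin, and is threaded by vessels, fibroblasts and immune cells. On a high-fat diet the pad is known to gain macrophages that gather around dying adipocytes and take up their lipid, and to lay down collagen, while insulin-responsive metabolic genes of adipocytes fall. In such bulk tissue fewer cells of a type and less RNA per cell cannot be told apart.

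At 600 mg/kg/day the fat pad differed from SD in far fewer genes than on HFD alone. Of 20054 genes tested, 1413 were higher (7.05%) and 1059 lower (5.28%) in SZ-A 600 than in SD at an adjusted p under 0.05 in edgeR's quasi-likelihood test, and such genes are said here to be called. HFD against SD gave 4835 genes higher (24.1%) and 3953 lower (19.7%). SZ-A 600 against HFD gave 2095 higher (10.4%) and 2890 lower (14.4%). The 3 comparisons share libraries pairwise, so their values are set side by side and are not independent of each other.

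Of the 4835 diet rises, 1220 (25.2%) were still called higher than SD at 600 mg/kg/day. Another 1959 (40.5%) were called back, which means lower than in HFD and not called against SD. Called in neither comparison were 1654 (34.2%), and 2 were called lower than SD. Of the 3953 diet falls, 775 (19.6%) were still called, 1379 (34.9%) were called back, 1798 (45.5%) were called in neither and 1 was called higher than SD. The median diet rise was 0.88 on the log2 scale in HFD and 0.39 in SZ-A 600, both against SD. The median diet fall was -0.74 in HFD and -0.31 in SZ-A 600. Medians over all genes tested were -0.00050 and 0.021. Diet rises that were still called had a median of 1.21 in HFD and 0.97 in SZ-A 600, and those called back had 0.89 and 0.18. A gene that is not called against SD was not shown to be at its SD level.

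**Figure D1:**
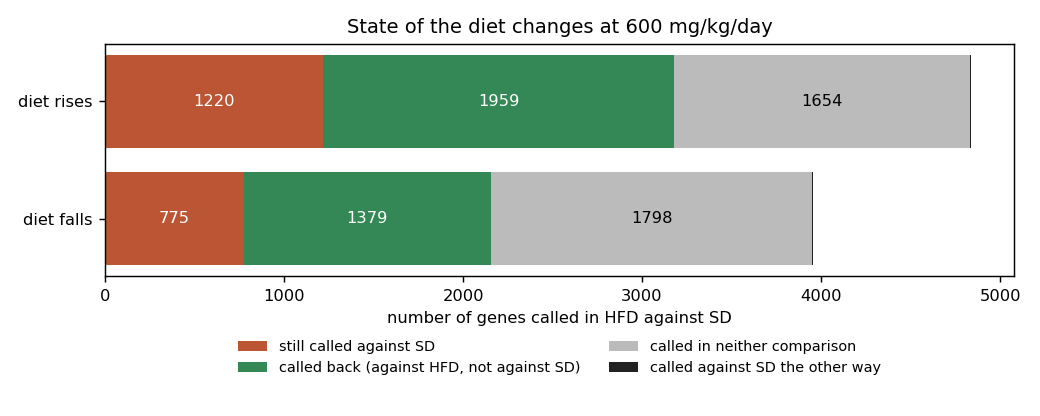
Number of genes called in HFD against SD (x axis), by direction (2 bars) and by their state in the SZ-A 600 libraries (colours). Of 4835 diet rises 1220 were still called against SD and 1959 were called back, and of 3953 diet falls 775 and 1379.

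The counts leaned on single libraries and on the treatment of the sets. Without SD library 2, 725 genes were higher and 335 lower in SZ-A 600 than in SD, and set 2 alone gave 3 calls in all, while limma voom with all 39 libraries gave 2120 and 1877. The SZ-A 600 libraries lay wholly above the SD libraries for 718 genes (3.58%) and wholly below for 492 (2.45%). Each of the 24 libraries of the 3 groups was also left out in turn. In 10 of these 24 fits it was an HFD library, which enters SZ-A 600 against SD only through the shared fit.

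Macrophage genes were among the diet changes still called. Of 20 macrophage markers 18 were diet rises, of which 12 were still called higher than SD and 6 were called back. Of all 20, 1 was lower than SD and 7 were not called against SD. Of 20 genes of lipid-associated macrophages, the cells that take up adipocyte lipid, 18 were diet rises. Of these 13 were still called higher and 2 were called back, and no member was lower than SD. Among all diet rises 25.2% were still called and 40.5% were called back. The median member of the lipid-associated list was 2.72 higher in SZ-A 600 than in SD on the log2 scale, and 3.78 higher in HFD. For the macrophage list the medians were 1.86 and 3.02, against 0.021 and -0.00050 over all genes tested. Summed macrophage markers were 743, 844 and 1346 CPM (lowest, median and highest library, here and below) in SD, 1142, 10340 and 15610 CPM in HFD, and 1834, 3232 and 8044 CPM in SZ-A 600. Every SZ-A 600 library thus held more of these transcripts than any SD library, and all HFD libraries but 8 and 10 held more than the SZ-A 600 median. The part of these cells in the single gene results was not tested.

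Itgax, which encodes the integrin CD11c, was at 3.29, 7.60 and 17.9 normalised CPM in SD, 9.04, 463 and 641 in HFD, and 76.0, 126 and 366 in SZ-A 600. All 8 SZ-A 600 libraries lay above the highest SD library. The log2 difference from SD was 4.21 ± 0.77 (standard error, adjusted p = 0.000591), and the difference from HFD, -1.10, was not called (adjusted p = 0.148). Trem2, the lipid-sensing receptor of these macrophages, was at 2.22, 5.79 and 16.3 in SD, 8.00, 409 and 661 in HFD and 61.7, 110 and 360 in SZ-A 600. Again no SZ-A 600 library reached down to the SD range (log2 difference 4.35 ± 0.82, adjusted p = 0.000766). Gpnmb, a transmembrane glycoprotein of lysosome-rich macrophages, was at 11.9, 43.8 and 152 in SD and 425, 886 and 3211 in SZ-A 600, 4.46 ± 0.93 higher (adjusted p = 0.00184). Cd68, a lysosomal glycoprotein of macrophages, was 2.84 ± 0.60 above SD (adjusted p = 0.00222). Mmp12, the macrophage elastase, rose from 0.562, 12.1 and 32.5 in SD to 312, 511 and 3069 in SZ-A 600 (adjusted p = 0.000899). Adgre1, which encodes the general macrophage antigen F4/80, was called against both: 2.12 ± 0.64 above SD (adjusted p = 0.0266) and -1.81 against HFD (adjusted p = 0.0174). Its call against SD was lost without SD library 2 (2.18, adjusted p = 0.0617) and without SZ-A 600 library 8 (1.65, adjusted p = 0.0963).

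Fewer members of other immune lists were still called at 600 mg/kg/day. Of all diet rises 25.2% were still called and 40.5% were called back. Of 15 resident macrophage genes 7 were diet rises, of which 5 were called back. None was called against SD in SZ-A 600, and the median was -0.056. Of 10 MHC class II genes, which present antigen to T cells, 8 were diet rises, 1 was still called (H2-DMb1, 1.47 above SD, a call lost without SZ-A 600 library 8 at 0.0608) and 7 were called back. Of 24 cytokines and chemokines 14 were diet rises. Of these 3 were still called higher than SD at 600 mg/kg/day and 6 were called back, a split near that of all diet rises. Il1rn, the antagonist of the interleukin 1 receptor, was 3.34 ± 0.92 above SD (adjusted p = 0.0151). Ccl2, which draws monocytes, was at 3.35, 6.10 and 15.1 normalised CPM in SD, 8.01, 22.7 and 43.0 in HFD and 2.83, 5.27 and 12.2 in SZ-A 600. Its SZ-A 600 libraries overlapped those of SD (log2 difference -0.45, adjusted p = 0.603) and were called lower than HFD (-1.87, adjusted p = 0.00333). Tnf was not called against SD (1.05, adjusted p = 0.269). Il1b was called lower than SD (-2.49 ± 0.68, adjusted p = 0.0145), a call that rested on SD library 6 at 24.9 CPM, since without it the difference was -0.70 (adjusted p = 0.45).

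Of 30 lysosomal genes tested, 26 were diet rises, 9 of them were still called higher than SD and 12 were called back, a split near that of all diet rises (25.2% and 40.5%). The 9 included Gla and Gusb, which cleave sugars from lipids and glycosaminoglycans (log2 differences 1.95 and 1.36, the second called in 21 of 24 fits that left out 1 library), and the proton pump subunit Tcirg1 (1.90). Those called back included the protease Ctsd and the hexosaminidase subunit Hexa, at -0.74 and -0.93 against HFD. Neu1, the lysosomal sialidase, was the member called lower than SD (-0.34, adjusted p = 0.027, called in 19 of 24 fits that left out 1 library). Gpr50, an orphan receptor of the melatonin receptor family, had the largest fitted rise of all genes named. It held 0 to 4 reads in each SD library and 5.82, 14.0 and 16.8 normalised CPM in SZ-A 600 (adjusted p = 1.7e-05).

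Further large rises were found for Stra6l, a retinol-binding protein receptor, at 0.0489, 0.220 and 0.879 in SD and 4.04, 8.07 and 22.0 in SZ-A 600, and for Rnf128, a ubiquitin ligase, at 0.173, 1.69 and 8.73 in SD and 23.9, 35.1 and 155 in SZ-A 600 (adjusted p = 0.000268 and 0.00328). Serpinb9b, Prss46, Myh15, Alpk2, Fat3 and AU022793 were also among the 10 largest, each with an SD median of at most 0.139 CPM and with all 8 SZ-A 600 libraries above the highest SD library. Like Gpr50, Stra6l and Rnf128, none of these was called higher in SZ-A 600 than in HFD. Gdf3, a ligand of the activin receptor ALK7, was at 0 to 0.402 CPM in SD, 0.0599, 15.3 and 25.5 in HFD and 1.45, 4.85 and 9.61 in SZ-A 600 (adjusted p against SD 0.00161). Acvr1c, which encodes that receptor, was at 250, 341 and 428 in SD, 23.5, 57.8 and 164 in HFD and 87.2, 166 and 247 in SZ-A 600. Its SZ-A 600 libraries all lay below the SD libraries, yet the fitted difference was not called (-0.75 ± 0.35, adjusted p = 0.154), and against HFD it was 1.49 (adjusted p = 0.00146).

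Leptin stayed above its SD level. Lep was at 321, 478 and 792 normalised CPM in SD, 710, 1710 and 2725 in HFD and 517, 1244 and 2094 in SZ-A 600. In 7 of 8 SZ-A 600 libraries it was above the highest SD library. The log2 difference from SD was 1.17 ± 0.30 (adjusted p = 0.00884), the diet difference 1.62 (adjusted p = 6.19e-05), and the difference from HFD, -0.45, was not called (adjusted p = 0.183). The call against SD was lost with all 43 libraries (adjusted p = 0.0604). Sfrp5, a secreted WNT antagonist of adipocytes, was at 64.6, 158 and 325 in SD, 233, 365 and 665 in HFD and 357, 671 and 892 in SZ-A 600, with no overlap between SD and SZ-A 600 (1.77 ± 0.34, adjusted p = 0.000897). Dgat2, which catalyses the last step of triglyceride synthesis, was at 288, 355 and 440 in SD and 618, 728 and 1177 in SZ-A 600 (1.07 ± 0.21, adjusted p = 0.00132). Its diet difference was 1.09 and its difference from HFD -0.03, so the rise was of like size in both. Fgf1, a growth factor of fat remodelling, behaved likewise at 1.05 above SD in both SZ-A 600 and HFD (adjusted p = 0.00245 and 0.000238). Adiponectin (Adipoq) and the adipocyte growth marker Mest were not called against SD (0.13 and 0.58, adjusted p = 0.856 and 0.238).

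**Figure D2:**
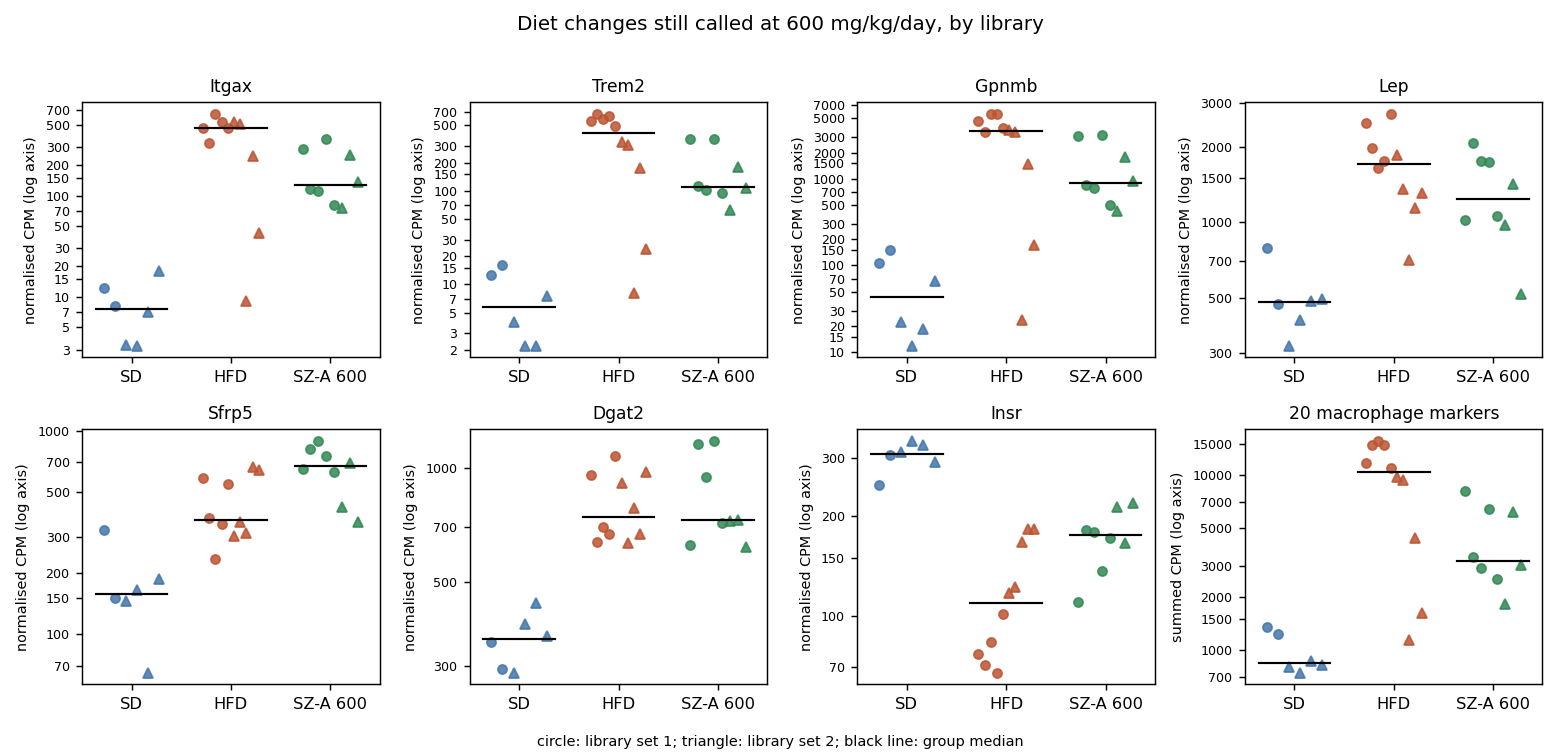
Normalised CPM of 7 genes and summed CPM of 20 macrophage markers (log axes) in each SD, HFD and SZ-A 600 library, with circles for set 1, triangles for set 2 and black lines for group medians. For Itgax, Trem2, Gpnmb, Sfrp5 and Dgat2 all 8 SZ-A 600 libraries lie above the SD libraries, for Lep 7 do, and for Insr all 8 lie below.

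Falls that were still called included parts of the insulin pathway. Insulin binds its receptor, which acts through the adaptors Irs1 and Irs2 on lipid kinases. Of 21 genes of the pathway 13 were diet falls. Of these 6 were still called lower than SD and 5 were called back, against 19.6% and 34.9% of all diet falls. The list also held 4 diet rises, all of which were called back. Irs2 was at 261, 356 and 440 normalised CPM in SD, 49.6, 95.5 and 267 in HFD and 90.3, 140 and 185 in SZ-A 600. No SZ-A 600 library reached the SD range (-1.15 ± 0.33, adjusted p = 0.0191), though the call was lost without SD library 2 (-0.90, adjusted p = 0.121). The receptor gene Insr was at 248, 309 and 338 in SD, 67.2, 109 and 183 in HFD and 110, 176 and 220 in SZ-A 600. It was called lower than SD (-0.65 ± 0.21, adjusted p = 0.0403) and higher than HFD (0.70, adjusted p = 0.00789), and the first call held in 11 of 24 fits that left out 1 library (adjusted p up to 0.207). That call was lost in each fit without an SD library. Pik3cb, a catalytic subunit of the lipid kinase, was -0.75 ± 0.14 against SD (adjusted p = 0.000899), and Grb10, an inhibitor of the receptor, -1.11 ± 0.29 (adjusted p = 0.00975, and 0.054 without SD library 2). Irs1 was not called against SD (-0.76, adjusted p = 0.095) and nor was the glucose transporter Slc2a4 (0.55, adjusted p = 0.213).

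Of 20 endothelial markers 13 were diet falls, and 3 of these were still called, near the 19.6% of all diet falls. In all, 4 members were called lower than SD in SZ-A 600, against 5.28% of all genes. No member was called between SZ-A 600 and HFD, where 24.9% of all genes were. Cldn5, the tight junction protein of vessels, was at 316, 558 and 638 in SD, 122, 201 and 542 in HFD and 146, 195 and 371 in SZ-A 600. In 7 of 8 SZ-A 600 libraries it was below the lowest SD library (-1.20 ± 0.29, adjusted p = 0.00659). The endothelial markers together summed to 3457, 4392 and 6242 CPM in SD and 1612, 2706 and 4289 CPM in SZ-A 600. Of 14 iron handling genes 4 were higher and 2 lower than SD, against 7.05% and 5.28% of all genes. Among them were the macrophage metal transporter Slc11a1 (2.26 ± 0.54, adjusted p = 0.00531) and the ferroxidase ceruloplasmin, Cp (-0.98 ± 0.25, adjusted p = 0.00792).

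Of 19 thermogenic genes, which the series title concerns, 2 were higher and 2 lower than SD, with a median of 0.06. Over all genes tested 7.05% were higher and 5.28% lower, so that counts this small say little about the list. Ppargc1a, a coactivator of mitochondrial and thermogenic genes, was at 3.88, 10.6 and 15.0 in SD, 0.738, 2.92 and 4.69 in HFD and 2.21, 4.61 and 5.15 in SZ-A 600, lower than SD by test (-1.20 ± 0.31, adjusted p = 0.0089, and 0.0526 without SD library 2) although the groups overlapped. Ebf2, a transcription factor of brown and beige adipocytes, was at -0.74 ± 0.21 (adjusted p = 0.0192, lost without SD library 1 at 0.0633 and without SD library 2 at 0.125). Higher than SD were Lhx8, a homeobox gene used as a brown fat marker, and Prdm16, a determinant of brown fat identity. Lhx8 had no read in 5 of 6 SD libraries and 0.453, 1.01 and 1.52 CPM in SZ-A 600. It was a diet rise that was still called, and it was not called higher than in HFD. Prdm16 was at 7.21, 9.59 and 10.3 in SD, 5.44, 9.74 and 12.7 in HFD and 9.35, 12.2 and 14.9 in SZ-A 600. It was called higher than SD (0.52 ± 0.17, adjusted p = 0.0376) and than HFD (0.46, adjusted p = 0.0187), and its call against SD held in 17 of 24 fits that left out 1 library. Ucp1, the uncoupling protein of brown fat, was at most 0.869 CPM in the 24 libraries of the 3 groups and was not called (0.04, 95% interval -1.85 to 1.93), nor was Cidea (-0.44, adjusted p = 0.444).

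Genes of cell division, matrix and protein folding were among the diet rises called back, against 40.5% of all diet rises. Of 30 proliferation genes 28 were diet rises, 26 were called back and none was called against SD (median 0.11, against 1.75 in HFD). The median of SZ-A 600 against SD was 0.89 within set 1 alone and -0.015 within set 2 alone. Mki67, a marker of dividing cells, was at 5.71, 8.58 and 22.1 normalised CPM in SD, 5.39, 73.0 and 92.2 in HFD and 5.65, 12.2 and 30.4 in SZ-A 600. The SZ-A 600 libraries lay largely within the SD range (0.25, 95% interval -0.92 to 1.42). Mcm6, a subunit of the replicative helicase, was at 9.88, 12.0 and 18.0 in SD, 10.5, 56.8 and 77.0 in HFD and 12.8, 22.0 and 28.0 in SZ-A 600. Here 6 of 8 SZ-A 600 libraries were above the highest SD library, although the difference was not called (0.51, adjusted p = 0.369).

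Of 37 extracellular matrix genes 31 were diet rises and 27 of these were called back, with a median of 0.29 in SZ-A 600 and 1.48 in HFD against SD. Col1a1, the main chain of fibrillar collagen, was at 123, 162 and 440 in SD, 143, 1235 and 2237 in HFD and 129, 286 and 573 in SZ-A 600. Its SZ-A 600 libraries overlapped those of SD (0.35, adjusted p = 0.693) and were called lower than HFD (-1.99, adjusted p = 0.00195). Col6a3, a chain of the collagen VI that encases adipocytes, was at 66.8, 99.5 and 239 in SD, 96.6, 382 and 870 in HFD and 73.9, 124 and 188 in SZ-A 600 (adjusted p against SD 0.635). The chains Col6a1 and Col18a1 were still called higher than SD (0.72 and 0.52). In fits that left out 1 library the call held in 10 of 24 for Col6a1 (adjusted p up to 0.126) and in 20 of 24 for Col18a1. Preadipocyte and fibroblast genes gave 10 diet rises of 18 tested, of which 8 were called back and 1 was called higher than SD (Ccn5, a matricellular WNT target, 1.96 ± 0.54, adjusted p = 0.0149).

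The unfolded protein response raises chaperones of the endoplasmic reticulum when misfolded protein accumulates there, through a stress element in their promoters. Of its 28 genes 17 were diet rises, against 24.1% of all genes, and 12 of them were called back, against 40.5% of all diet rises. In SZ-A 600, 3 genes were called higher and 2 lower than SD. Beside 7.05% and 5.28% of all genes, these small counts say little about the list. Among 25 members with a promoter in the RefSeq table (build GRCm38.p6), 8 held the element, CCAAT and CCACG with 9 bases of any kind between them, on either strand in the 250 bases before the start site, against 0.113% of 32851 promoters of that length. The promoters of Hspa5 and Creld2 are shown because both genes rose on HFD and were called back, and the capitals mark the element, which lies in Creld2 on the opposite strand.

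Hspa5, chr2:34771840-34772089, plus strand, element from -65: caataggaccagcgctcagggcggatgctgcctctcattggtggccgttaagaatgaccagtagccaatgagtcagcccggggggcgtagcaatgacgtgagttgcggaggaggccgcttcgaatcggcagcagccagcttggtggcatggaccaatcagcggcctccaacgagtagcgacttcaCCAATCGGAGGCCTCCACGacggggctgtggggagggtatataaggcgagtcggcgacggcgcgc
Creld2, chr15:88819396-88819645, plus strand, element from -126: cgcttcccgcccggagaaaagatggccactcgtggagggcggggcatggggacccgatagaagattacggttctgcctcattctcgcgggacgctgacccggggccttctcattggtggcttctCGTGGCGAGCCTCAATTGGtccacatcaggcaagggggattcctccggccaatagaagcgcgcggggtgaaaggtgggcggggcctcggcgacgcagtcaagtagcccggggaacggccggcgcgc

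Hspa5, the chaperone BiP, was at 220, 269 and 362 normalised CPM in SD, 401, 624 and 907 in HFD and 227, 306 and 361 in SZ-A 600. The HFD libraries stood wholly above both other groups, and the SZ-A 600 libraries lay within the SD range. The difference of SZ-A 600 from SD was 0.04 (95% interval -0.25 to 0.32), that of HFD from SD 1.08 (adjusted p = 1.23e-06) and that of SZ-A 600 from HFD -1.04 (adjusted p = 2.72e-06). Creld2, a folding factor released under such stress, was at 16.0, 18.7 and 20.3 in SD, 28.1, 40.9 and 55.4 in HFD and 17.5, 20.2 and 27.8 in SZ-A 600. Here too every HFD library exceeded every library of the other 2 groups (-1.0 in SZ-A 600 against HFD, adjusted p = 3.59e-05). Sdf2l1, a partner of BiP, was one of the 3 called higher than SD (1.51 ± 0.36, adjusted p = 0.00525). The others were P4hb, the protein disulfide isomerase, and Calr, the chaperone calreticulin, at 0.38 and 0.53, and the stress factor Atf4 and the degradation factor Herpud1 were called lower at -0.50 and -0.47. Of 24 fits that left out 1 library, P4hb was called in 24, Atf4 in 23 and Calr and Herpud1 in 11 each. Outside the list, Prkcsh, the regulatory subunit of the alpha-glucosidase of the endoplasmic reticulum, was higher than SD (0.36 ± 0.07, adjusted p = 0.00106), while the catalytic subunit Ganab was not called (-0.01, adjusted p = 0.927).

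**Figure D3:**
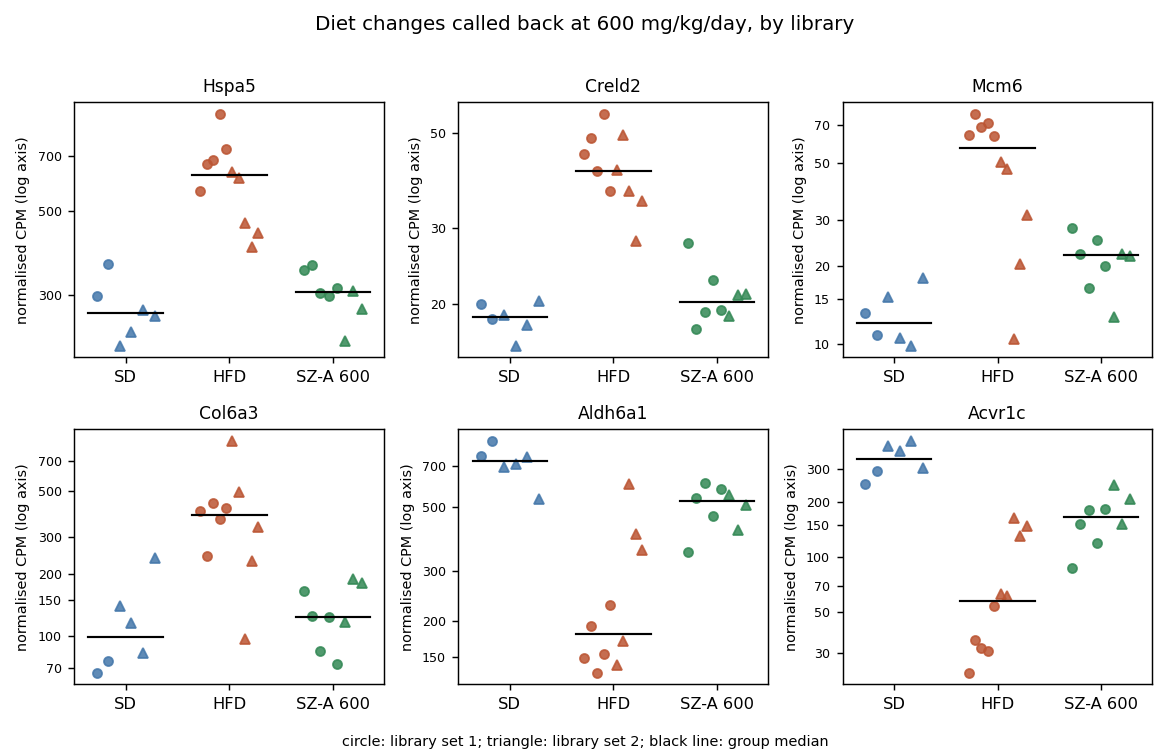
Normalised CPM (log axes) of 6 diet changes that were called back, in each SD, HFD and SZ-A 600 library, with circles for set 1, triangles for set 2 and black lines for group medians. All HFD libraries lie above the SZ-A 600 libraries for Hspa5 and Creld2. For Mcm6, Col6a3, Aldh6a1 and Acvr1c the HFD and SZ-A 600 libraries overlap. All SZ-A 600 libraries lie below the SD libraries for Acvr1c.

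Some genes of adipocyte metabolism were called back from below, against 34.9% of all diet falls. Of 24 genes of branched-chain amino acid breakdown, a pathway of mature adipocytes, 19 were diet falls, 11 of them were called back and none was called against SD (median -0.22, against -0.71 in HFD). Aldh6a1, which acts late in valine breakdown, was at 537, 728 and 854 in SD, 132, 181 and 604 in HFD and 350, 525 and 608 in SZ-A 600. The difference from SD was -0.45 (95% interval -1.06 to 0.16) and from HFD 1.06 (adjusted p = 0.00536), and 4 of 8 SZ-A 600 libraries lay below the lowest SD library. Of 22 mature adipocyte markers 13 were diet falls, 8 of these were called back and 1 gene was called higher than SD. Scd1, the stearoyl-CoA desaturase, was at 31980, 46860 and 70430 in SD, 8499, 11900 and 46130 in HFD and 28610, 39440 and 75010 in SZ-A 600, so that SD and SZ-A 600 overlapped (-0.003, adjusted p = 0.998). Of 15 lipolysis genes 9 were diet falls, against 19.7% of all genes. Of these 9, 3 were called back and 1 was still called lower than SD in SZ-A 600, against 34.9% and 19.6% of all diet falls. Of 15 lipogenesis genes 6 were diet falls, of which 4 were called back. The median log2 difference of the lipolysis genes from SD was -0.03 in SZ-A 600 and -0.71 in HFD. Adrb3, the main adrenergic receptor of rodent fat, was not called against SD (-0.84, adjusted p = 0.451), nor were Fasn (-0.72), Pparg (-0.77, adjusted p = 0.0502) and Fgf21 (-0.97). The summed mature adipocyte markers were 70680, 74600 and 80200 CPM in SD, 30030, 38140 and 92770 in HFD and 55020, 72400 and 78600 in SZ-A 600. Their part in the single gene results was not tested.

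By the size of the change against HFD, the rule for named genes chose Nptx1, Cck, Wnt2 and the immunoglobulin segments Igkv17-121 and Igkv3-2 among the diet rises called back. All 5 had an SZ-A 600 median of at most 0.457 CPM. The segments reached 204 CPM in single HFD libraries, where B cell markers summed to up to 2726 CPM against at most 390 CPM in SZ-A 600. Among the falls its choice included Tmem88b, Nxf3, Tpte and Adam3. Tmem88b, a membrane protein, was at 22.2, 26.8 and 74.0 in SD, 1.16, 1.83 and 21.3 in HFD and 8.67, 12.9 and 36.1 in SZ-A 600 (2.01 against HFD, adjusted p = 0.00712).

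**Figure D4:**
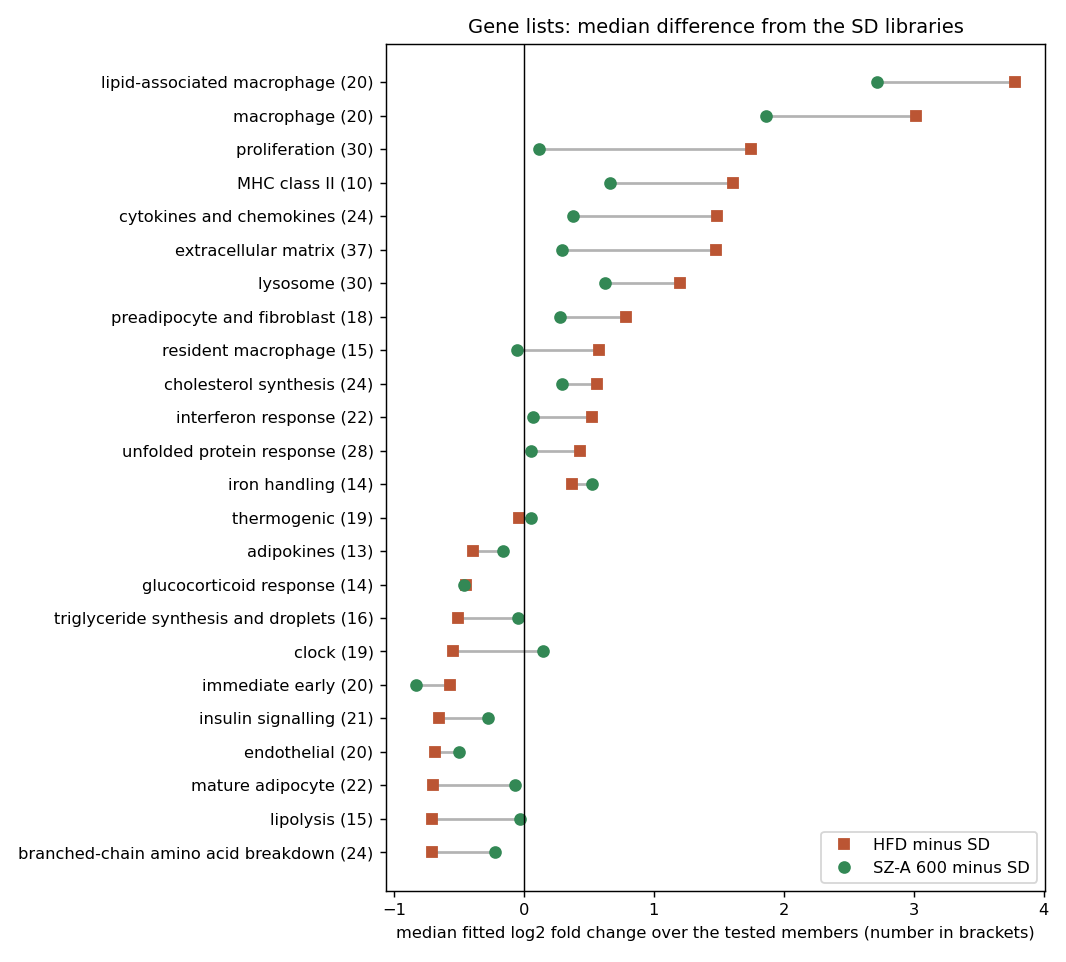
Median fitted log2 fold change over the tested members (x axis) of 24 gene lists (y axis, number of members in brackets), with squares for HFD minus SD and circles for SZ-A 600 minus SD. The 2 macrophage lists keep medians of 2.72 and 1.86 in SZ-A 600, proliferation moves from 1.75 to 0.11, the clock list from -0.55 to 0.15 and the immediate early list from -0.57 to -0.83.

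Beyond SD, in the sense of being called in the same direction against both SD and HFD, were 103 genes higher (0.514%) and 180 lower (0.898%). Of the 103, 15 were also diet rises, and of the 180, 24 were also diet falls, so that in these the diet change went further. They included Ct55, Rarres2, Sycp3 and Synpo2 among the higher, and Fosl2, Foxj1 and Myc among the lower. With HFD libraries 8 and 10 left out the counts of 103 and 180 became 194 and 195. Without SZ-A 600 library 7 they were 63 and 107, and without SD library 2 they were 66 and 77. Of 19 clock genes 2 were higher and 3 lower than both.

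The circadian clock of a cell is a loop of transcription. CLOCK (or NPAS2) and BMAL1, the product of Arntl, drive the repressors Per and Cry, the nuclear receptors Nr1d1 and Nr1d2, and the output factors Dbp, Tef and Hlf through E-boxes. Nr1d1 and Nr1d2 in turn repress Arntl, Npas2 and Nfil3 through ROR elements, and Dbp, Tef and Hlf activate at D-boxes where Nfil3 represses. Transcripts of both arms are known to swing in opposite phase over the day in fat.

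Promoters from RefSeq (build GRCm38.p6, the 250 bases before the start site) were searched on both strands. The E-box was CACGTG, the D-box TTATGTAA, TTACGTAA, TTATGCAA or TTACGCAA, and the ROR element TAGGTCA or TGGGTCA. Of 16 clock genes with a promoter there, 5 held an E-box (6.02% of 32851 promoters do), 2 a D-box (1.75%) and 1 a ROR element (5.38%). Members of each kind are shown because their transcripts changed, with the element in capitals and both start sites of Tef. The windows of Dbp, Hlf and Nr1d1 held no match to the E-box and those of Arntl and Npas2 none to the ROR element, which says only that these letters are not there. The elements printed do not overlap, and a match is a description of letters and not a site of binding.

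Tef site 1, chr15:81802423-81802672, plus strand, E-box from -127: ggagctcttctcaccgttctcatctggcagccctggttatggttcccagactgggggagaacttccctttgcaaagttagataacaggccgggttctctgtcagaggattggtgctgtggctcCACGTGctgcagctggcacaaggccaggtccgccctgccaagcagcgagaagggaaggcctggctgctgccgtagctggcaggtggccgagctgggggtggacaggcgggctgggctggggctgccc
Tef site 2, chr15:81811164-81811413, plus strand, E-box from -138: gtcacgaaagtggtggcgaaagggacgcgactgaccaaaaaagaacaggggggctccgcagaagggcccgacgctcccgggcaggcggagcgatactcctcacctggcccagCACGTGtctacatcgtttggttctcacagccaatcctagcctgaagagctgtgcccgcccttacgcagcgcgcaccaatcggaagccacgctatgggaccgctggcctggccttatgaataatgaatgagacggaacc
Per3, chr4:151044666-151044915, minus strand, D-boxes from -205 and -158: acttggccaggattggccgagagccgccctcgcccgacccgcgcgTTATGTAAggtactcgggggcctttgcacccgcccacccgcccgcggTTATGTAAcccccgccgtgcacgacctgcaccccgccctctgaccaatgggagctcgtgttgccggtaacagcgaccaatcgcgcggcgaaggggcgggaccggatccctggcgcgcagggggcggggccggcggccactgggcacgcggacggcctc
Nfil3, chr13:52981040-52981289, minus strand, ROR element on the opposite strand from -12: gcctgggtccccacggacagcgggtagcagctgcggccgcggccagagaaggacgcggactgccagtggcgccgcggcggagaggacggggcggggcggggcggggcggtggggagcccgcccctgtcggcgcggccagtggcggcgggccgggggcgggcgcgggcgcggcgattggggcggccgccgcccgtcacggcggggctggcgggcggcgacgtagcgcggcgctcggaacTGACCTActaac

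Dbp, the output factor that binds D-boxes, was at 5.29, 5.42 and 11.4 normalised CPM in SD, 5.22, 11.7 and 14.7 in HFD and 31.6, 39.9 and 56.4 in SZ-A 600. All 8 SZ-A 600 libraries stood above every SD and every HFD library. The difference from SD was 2.39 ± 0.28 on the log2 scale, 5.24-fold (adjusted p = 1.02e-06), and from HFD 1.86 (adjusted p = 2.72e-06), while HFD and SD were not called apart (0.53, adjusted p = 0.0792). The difference was 2.93 within set 1 and 2.32 within set 2, and Dbp was called under all 15 other settings of the fit and in all 24 fits that left out 1 library.

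Tef, its relative with the E-box at both start sites, was at 102, 130 and 163 in SD, 66.1, 81.1 and 124 in HFD and 153, 172 and 232 in SZ-A 600. It was the one diet fall called higher than SD, and so moved past the SD level from below (0.61 ± 0.13, adjusted p = 0.00195), though 3 of 8 SZ-A 600 libraries lay within the SD range. Without the set term that call was lost (0.48, adjusted p = 0.0621). Hlf, the third of these factors, was not called against SD (0.59, adjusted p = 0.226) and was higher than in HFD (1.84, adjusted p = 0.000103).

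The arm that Nr1d1 and Nr1d2 repress was at the other extreme. Arntl was at 17.2, 22.6 and 26.5 in SD, 11.1, 24.5 and 27.9 in HFD and 4.32, 6.86 and 10.1 in SZ-A 600, with no overlap between SZ-A 600 and either group. The difference from SD was -1.72 ± 0.18, 3.29-fold lower (adjusted p = 1.79e-07), and HFD did not differ from SD by test (-0.06, adjusted p = 0.805). Npas2 was at 7.24, 9.21 and 11.0 in SD, 4.52, 9.24 and 12.6 in HFD and 0.998, 1.63 and 4.37 in SZ-A 600 (-1.98 ± 0.37, adjusted p = 0.000759). Nfil3 was at 7.88, 15.1 and 37.2 in SD, 7.47, 11.6 and 20.9 in HFD and 2.42, 3.90 and 5.88 in SZ-A 600 (-2.23 ± 0.32, adjusted p = 3.04e-05). For Npas2 and Nfil3 the SZ-A 600 libraries lay below all others. The promoter window of Nfil3 holds a match to the ROR element, as 5.38% of all promoters do, and those of Arntl and Npas2 hold none. Clock, the partner of Arntl, was lower than SD in SZ-A 600 (-0.61 ± 0.10, adjusted p = 0.000226) by about as much as in HFD (-0.63).

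The repressors themselves were called back or not called. Per3, with 2 D-boxes in its promoter, was at 38.9, 87.6 and 136 in SD, 14.6, 30.8 and 61.8 in HFD and 42.6, 67.2 and 123 in SZ-A 600. SD and SZ-A 600 overlapped (0.27, 95% interval -0.17 to 0.70), and SZ-A 600 was 1.40 above HFD (adjusted p = 1.1e-05). Within each group the set 1 libraries of Per3 were the lower ones. Nr1d1 and Nr1d2 were likewise not called against SD (-0.02 and 0.32, adjusted p = 0.965 and 0.106) and called higher than HFD (1.04 and 0.87). Ciart, a repressor of the loop, was 1.52 above HFD (adjusted p = 0.00123) and not called against SD (adjusted p = 0.201). Per1, Per2 and Cry1 were called neither against SD (adjusted p = 0.15, 0.795 and 0.0699) nor against HFD. Bhlhe41, an E-box repressor, was a diet rise that was still called, with 5.86, 7.20 and 10.2 in SD and 18.6, 20.3 and 32.9 in SZ-A 600 (1.52 ± 0.35, adjusted p = 0.00455).

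**Figure D5:**
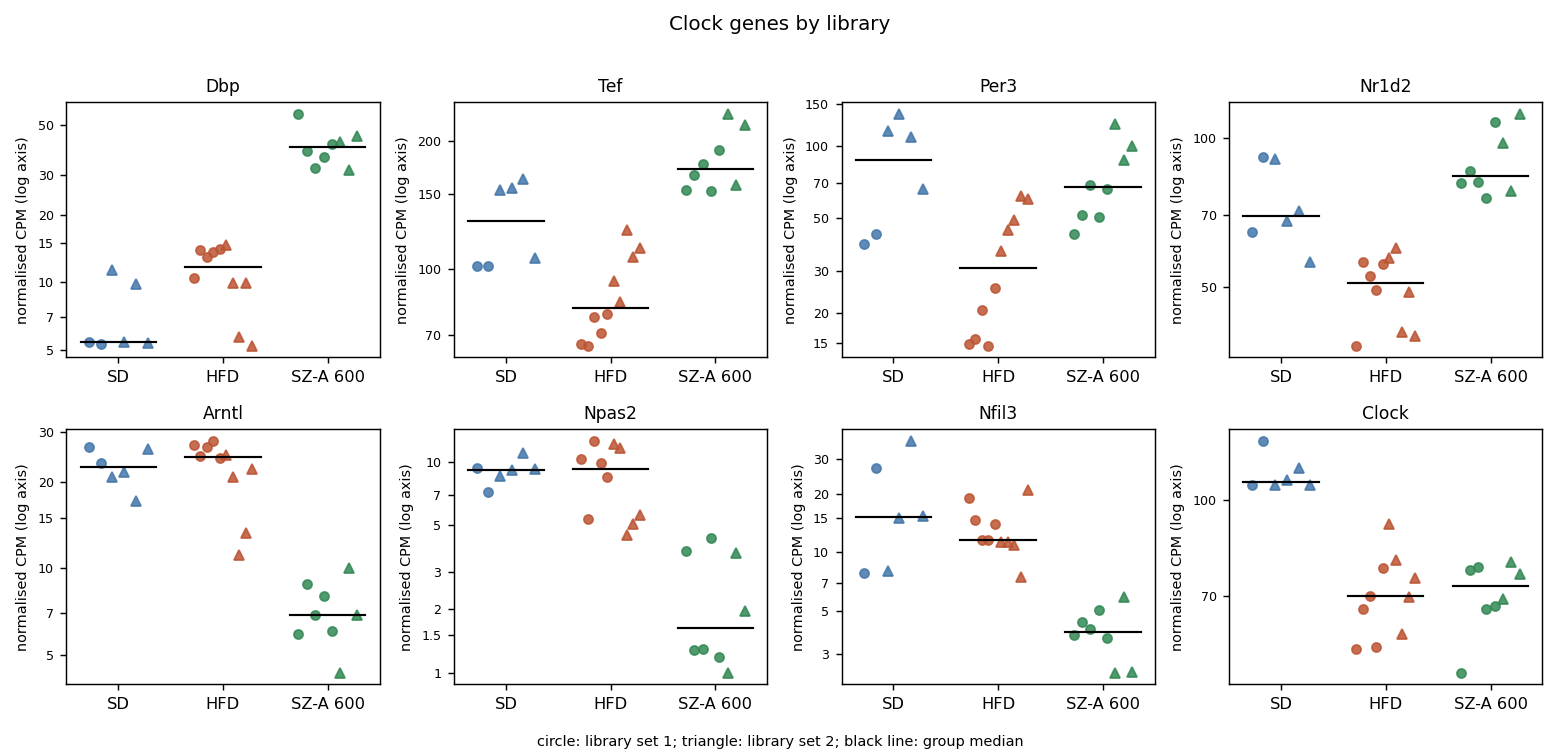
Normalised CPM (log axes) of 8 clock genes in each SD, HFD and SZ-A 600 library, with circles for set 1, triangles for set 2 and black lines for group medians. Dbp lies higher in all 8 SZ-A 600 libraries than in any other library shown and Arntl, Npas2 and Nfil3 lower, while Per3 overlaps with SD and Clock with HFD.

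Of 20 immediate early genes, which answer stimuli within minutes, 9 were called lower than SD (5.28% of all genes were), none was higher and 11 were not called, with a median of -0.83 (HFD -0.57), and 3 were lower than both SD and HFD. Fosl2, a subunit of the AP-1 factor, was at 131, 207 and 242 in SD, 72.1, 92.7 and 215 in HFD and 48.6, 61.4 and 105 in SZ-A 600. All 8 SZ-A 600 libraries were below the SD libraries (-1.40 ± 0.17, adjusted p = 2.32e-06), and the gene was also below HFD (-0.58, adjusted p = 0.00702). Myc, a factor of cell growth, was at 38.2, 59.6 and 83.8 in SD, 23.9, 26.9 and 73.2 in HFD and 14.1, 17.7 and 26.0 in SZ-A 600 (-1.55 ± 0.22, adjusted p = 2.13e-05). Zfp36, which destabilises cytokine transcripts, was lower than SD (-1.08 ± 0.24, adjusted p = 0.00279) and not called against HFD. Dusp1, a phosphatase of MAP kinases, was below both (-0.71 against SD, adjusted p = 0.0254), and its call was lost without SD library 2 (-0.55, adjusted p = 0.145) and SD library 3 (-0.60, adjusted p = 0.075).

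Of 14 glucocorticoid-responsive genes 6 were lower than SD and none higher, against 5.28% and 7.05% of all genes. The median was -0.46 in SZ-A 600 and -0.44 in HFD, against 0.021 and -0.00050 over all genes tested. Cdkn1a, an inhibitor of cyclin-dependent kinases, was at 108, 154 and 247 in SD, 99.8, 126 and 208 in HFD and 33.8, 59.3 and 84.5 in SZ-A 600. It was below all SD and HFD libraries in every SZ-A 600 library (-1.59 ± 0.27, adjusted p = 0.000226). Errfi1, a feedback inhibitor of the EGF receptor, was at -1.72 ± 0.35 (adjusted p = 0.00172), and the kinase Sgk1 was at -1.0 ± 0.24 (adjusted p = 0.00614, and 0.0656 without SD library 2).

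The inducible heat shock genes Hspa1a and Hspa1b were lower than in both groups by test, with a wide SD group. Hspa1a was at 3.40, 33.9 and 252 in SD, 4.42, 13.8 and 138 in HFD and 3.14, 4.70 and 7.18 in SZ-A 600 (-3.42 ± 0.88 against SD, adjusted p = 0.00994). The SD libraries 5, 6 and 7 were the high ones at 49.6, 211 and 252, and the other 3 were at 3.40 to 18.1. Hsph1, a co-chaperone of HSP70, followed the same order (-1.25, adjusted p = 0.0151), and its call was lost without SD library 6 (-0.94, adjusted p = 0.0678) or 7 (-0.85, adjusted p = 0.085). Ptx3, a secreted pentraxin of inflammation, was below both (-2.08 ± 0.42, adjusted p = 0.0014), as was the chemokine Cxcl10 (-1.29, adjusted p = 0.0444, called in 11 of 24 fits that left out 1 library). Cd14, the coreceptor for endotoxin and a macrophage marker, was below both as well (-0.90, adjusted p = 0.043, called in 14 of 24 such fits), against the direction of the macrophage list. The protease Adamts16 (-1.50, adjusted p = 0.0325, 18 of 24 fits) and the sorting receptor Sorcs2 (-1.39, adjusted p = 0.042, 16 of 24 fits) were lower than both as well.

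Among genes above both, Sycp3, a protein of meiotic chromosomes, was at 4.17, 4.87 and 6.63 in SD, 3.97, 13.2 and 16.2 in HFD and 18.6, 37.6 and 49.9 in SZ-A 600. The SZ-A 600 libraries stood wholly above the rest, 5.59-fold over SD (2.48 ± 0.26, adjusted p = 1.79e-07), and the gene was called under the same 15 settings and 24 fits. Hmgcs1, an enzyme of cholesterol synthesis, was higher than both as well (0.65 ± 0.21 against SD, adjusted p = 0.0353, called in 18 of 24 fits that left out 1 library). It was the only one of 24 cholesterol synthesis genes above both. Against HFD 9 of the 24 were lower and 3 higher in SZ-A 600, where 14.4% and 10.4% of all genes were. Of 16 diet rises in the list 3 were still called and 8 called back, a split near that of all diet rises (25.2% and 40.5%). Synpo2, an actin-binding protein of smooth muscle, was at 231, 282 and 366 in SD, 351, 523 and 874 in HFD and 688, 908 and 1111 in SZ-A 600 (1.65 ± 0.24, adjusted p = 4.1e-05). It was the single one of its smooth muscle list called against SD. Rarres2, the adipokine chemerin, was at 48.9, 65.7 and 116 in SD, 82.8, 135 and 157 in HFD and 127, 187 and 234 in SZ-A 600 (1.04 ± 0.15, adjusted p = 4.1e-05).

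The rule also named Kiss1r, the kisspeptin receptor, which was at 5.46, 9.98 and 13.4 in SD, 2.37, 3.17 and 17.5 in HFD and 15.9, 21.1 and 27.8 in SZ-A 600 (1.48 ± 0.44, adjusted p = 0.0224, and 0.0639 without SD library 2). All 8 SZ-A 600 libraries were above SD, and of the HFD libraries only the highest reached into their range. Ct55, Myom3, Wdr86 and Cc2d2b were higher than SD by 3.40, 1.11, 1.11 and 1.23, with SD medians of 0.295, 5.90, 1.90 and 1.34 CPM. Usp29 and Mrgprg had SD medians of 0.290 and 0.0758 CPM, and their adjusted p was 0.0362 and 0.0488, called in 16 and 6 of 24 fits that left out 1 library. The Mrgprg call was lost in each fit without an SD library.

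Of the largest falls against SD, Irf4, an interferon regulatory factor that acts in adipocytes, macrophages and B cells, was at 62.9, 153 and 584 in SD, 7.42, 15.8 and 134 in HFD and 5.64, 12.9 and 26.9 in SZ-A 600. No SZ-A 600 library reached the SD range (-3.95 ± 0.78, adjusted p = 0.00114), and SZ-A 600 and HFD were not called apart (-0.49, adjusted p = 0.611). Cyp2f2, a cytochrome P450, was at 3.26, 9.64 and 16.8 in SD and 0.116, 0.515 and 1.19 in SZ-A 600 (-3.95 ± 0.70, adjusted p = 0.000386). Glt1d1, a glycosyltransferase, and Slc44a4, a transporter, were at 0.807 to 4.47 and 1.02 to 4.02 CPM in SD and at most 0.425 and 0.261 CPM in SZ-A 600. Tlcd4 had an SD median of 6.25 CPM and an SZ-A 600 median of 0.618 CPM. Foxj1, the regulator of motile cilia, was highest in SD library 1 at 15.5 CPM, the next being 0.517 CPM, and its difference from SD moved from -6.87 to -3.47 without that library (adjusted p = 0.0442). The ciliated marker sum of that library was 63.1 CPM against 14.8 CPM in the next SD library. Xist, the transcript of X inactivation, was at 0.230, 3.25 and 36.0 in SD and at most 3.38 CPM in SZ-A 600 (adjusted p = 0.0341, called in 19 of 24 fits that left out 1 library).

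The opposite crossing, a diet rise that ended lower than SD, was seen in 2 genes, which were picked out after their values were seen. Sec14l1, a lipid-binding protein, was at 93.6, 106 and 137 in SD, 114, 145 and 156 in HFD and 72.7, 90.6 and 100.3 in SZ-A 600 (-0.31 ± 0.10 against SD, adjusted p = 0.0337, called in 16 of 24 fits that left out 1 library). Banp, a DNA-binding nuclear protein, was at 7.14, 15.4 and 18.4 in SD and 5.83, 9.10 and 11.9 in SZ-A 600 (-0.57 ± 0.16, adjusted p = 0.0193, and 0.273 without SD library 2).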

How the data were processed

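Read counts per gene, deposited by the authors in 1 table of the series, were analysed without change. FPKM values deposited by the authors in a separate table, taken as log2(FPKM + 1), served 1 alternative. The genome is mm10, per the submitters' processing notes, with aligner and counter not given in the sources used here.

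Of 56748 genes, 20054 passed filterByExpr. Counts of 39 libraries, those with RNA of another tissue left out, were fitted in edgeR 4.0.16 (R 4.3.3) with TMM factors, group and library set as terms, and robust quasi-likelihood F tests. P-values were adjusted by Benjamini-Hochberg over all genes tested, and a gene was called at an adjusted p under 0.05. Normalised CPM are counts per 1e6 of the library total times its TMM factor. Log2 differences and their standard errors come from the fit. The 2 library sets lie on either side of the widest gap, on a log scale, in the share of small noncoding RNA counts.

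Genes were named by rule. It took the 10 largest rises and the 10 largest falls against SD by fitted log2 difference, the 10 per direction that were beyond both SD and HFD, and the 5 per direction called back, all with a mean of 1 CPM or more in the higher group and 80% or more of each group's libraries beyond the median of the other, plus a fixed panel and the 3 members of each list with the smallest p, of which some are given. The 36 lists hold 636 symbols, 608 of them tested. Members and lists were chosen with earlier results of these data known. Alternatives were DESeq2 1.42.0, limma 3.58.1, other scalings, filters, thresholds and designs, and each library left out in turn. No library pair of a group held identical counts. The fit was tested on simulated counts, and figures were drawn with matplotlib 3.10.9. Results for a few genes are not reported here.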

Additional observations from a re-analysis of the deposited data

Results flagged for a closer look

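Single libraries stood far from the rest of their group for 22 of 405 groups of values checked, by a test of the gap to the nearest library that chance meets in about 1 in 20 groups. HFD library 8, poor in macrophage transcripts, was the lowest HFD library for Col1a1 (143 CPM, next 601), Fgf1 (25.5, next 68.1), Ccn5 (13.4, next 56.6) and Tnf (0.299, next 1.45). HFD library 10 was the lowest for Sycp3 (3.97, next 11.1), and HFD library 1 for Ppargc1a (0.738, next 1.87).

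SD library 1 was the highest of SD for Foxj1 (15.5 CPM, next 0.517), the ciliated marker sum (63.1, next 14.8), Ccn5 (66.4, next 11.6), Myom3 (11.5, next 6.34) and Alpk2 (0.220, next 0), and the lowest for Adrb3 (386, next 932) and Banp (7.14, next 13.2). SD library 7 was the highest for Col6a1 (318, next 209) and Lhx8 (0.0539, next 0) and the lowest for Ppargc1a (3.88, next 9.58). Cck was highest in SD library 5 (0.428, next 0.0576) and Igkv17-121 in SD library 3 (1.22, next 0.0275).

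Among the SZ-A 600 libraries, library 1 was the lowest for Clock (52.4 CPM, next 66.6), library 8 the highest for Il1b (2.67, next 0.637), and library 9 the highest for Xist (3.38, next 0.404) and Igkv17-121 (0.0473, next 0). In the libraries left out, ciliated epithelium genes summed to 1550 CPM (SD library 4) and 2670 CPM (SZ-A 600 library 6), above the highest sum of 63.1 CPM in a library used.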

How the results depend on the processing

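Genes near 0 in SD rest on few reads, and SD held 6 libraries. Over the 24 fits that left out 1 library, genes higher than SD ranged from 725 to 1689 and lower from 335 to 1282, diet rises still called from 625 to 1437 and falls from 223 to 941, rises called back from 1477 to 2409 and falls from 1007 to 2201, and genes higher than both from 63 to 146 and lower from 77 to 250. SD library 2 gave the lowest of the first 4 and of the last. Without SD library 1 there were 605 genes lower, 427 falls still called and 116 lower than both. Without SZ-A 600 library 8 there were 927 genes higher and 764 rises still called. Genes lower than both were 118 without SD library 6, and 118, 108 and 107 without SZ-A 600 libraries 3, 4 and 7. Without HFD library 8 there were 2201 falls called back. The cause of these differences was not tested.

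Set 1 alone gave 518 higher and 499 lower, 426 and 399 still called, 2354 falls called back and 75 lower than both. Set 2 alone gave 3 genes higher and 0 lower by edgeR (1647 and 1061 at an unadjusted p under 0.05), 2 and 0 still called, and 0 and 0 both called back and beyond both. Why set 2 gave so few was not tested. All 43 libraries gave 533 and 351, 446 and 231 still called, and 44 and 72 beyond both. Without the set term 1058 and 501 were called back and 54 and 100 beyond both. The replicate block gave 627 and 621, 573 and 516 still called, and 45 and 67 beyond both, and same-numbered libraries did not deviate together (correlations -0.0778 to 0.0168), so the numbers are not taken to pair the samples. Limma voom gave 2120 and 1877, 1430 falls still called, 3422 and 3354 called back, and 388 and 404 beyond both. A 1.5-fold minimum, stricter by construction, gave 398 lower, 267 falls still called, 1105 and 825 called back, and 60 and 49 beyond both. No filter beyond 1 count, with more genes tested, gave 645 lower, 418 falls still called and 81 lower than both. Limma-trend on log2 FPKM gave 780 rises still called, the 3 groups alone 156 higher than both, and the DESeq2 Wald test 169. Leaving out HFD libraries 8 and 10, chosen after seeing the data, gave 2657 falls called back and 194 higher than both. DESeq2 size factors, upper-quartile factors and the stricter filter kept these 8 counts within 1.5 times. Of the named genes, Hsph1 turned to 0.085 in set 1 alone and Sorcs2 to 0.08 with all 43 libraries. The call of Lep was lost with the replicate block (adjusted p = 0.0573).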
